A study of Mus musculus with 12 samples.

Results

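A set of 10 genes that mark resident-type scavenger macrophages was followed in tumor-associated macrophages (TAMs) sorted from mouse melanoma, namely Cd5l, Marco, Cd163, Mrc1, Vsig4, Timd4, Clec4f, Folr2, Lyve1 and Cbr2. They were chosen by name from the 55401 genes of each of 2 count tables, with their lower levels in AMPK-KO samples already known. A symbol on several rows would have been represented by the row with the most counts, but each of the 10 stood on a single row. Of the 10, 9 had enough reads to be tested in both tables, and Clec4f had no read in any of the 12 libraries.

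Macrophages that live in a tissue for long periods clear dying cells, haemoglobin, modified lipoproteins and microbes from it. They do so with a set of surface receptors and secreted proteins, many of which are highest in liver Kupffer cells and in the macrophages of the spleen, peritoneum and vessel walls. In tumors, where most macrophages descend from blood monocytes, such genes are widely used to mark macrophages of resident type. AMPK, the kinase deleted in one of the experiments, senses low cellular energy.

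By the methods, TAMs were sorted as CD45+ CD11b+ Ly6C- Ly6G- F4/80+ cells from subcutaneous B16-F10 tumors, a melanoma line of C57BL/6 mice, and bulk RNA-seq was performed on each sample. Captions of the supplementary figures write the gate with Ly6C+ instead, and the caption on the gating strategy also with Ly6G+. The first table holds 3 WT samples from AMPKfl/fl mice, whose AMPK gene carries loxP sites but which are labelled with no Cre, and 3 AMPK-KO samples from AMPKfl/flLyz2cre/cre mice, both from tumors at day 15 by the methods. Lyz2-cre deletes floxed genes in myeloid cells at large, neutrophils and monocytes included, and not in TAMs alone. The genotype field of AMPK-KO replicates 2 and 3 reads Lyz3cre and Lyz4cre, and the titles, which read Lyz2cre for all 3, were followed. The second table holds 3 early-stage samples (day 8) and 3 late-stage samples (day 15), labelled WT with no floxed allele and labelled, like all 12 samples, as having no treatment. By the methods, the tumor-bearing mice were female, of C57BL/6 background and 5 weeks old. Neither labels nor methods say whether a sample came from 1 animal or from a pool, so the tests below measure the spread between these samples, which may be technical.

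Library totals ranged from 71019494 to 84470374 counts, and levels are given as CPM, the counts scaled to library size, after TMM scaling, with scaling factors from 0.981 to 1.02. The targeted AMPKα1 gene Prkaa1 stood at 68.8, 62.8 and 63.3 CPM in the WT samples and at 47.0, 40.9 and 40.8 CPM in the AMPK-KO samples, where the groups did not overlap but a good part of the reads was still present. Lyz2, the gene into which this Cre is inserted and whose transcript that insertion disrupts, was near 10 CPM in WT and AMPK-KO samples alike (10.7 ± 2.46 and 11.2 ± 2.16 CPM, SD, n = 3) and at 2790 ± 279 and 1107 ± 19.1 CPM in the early-stage and late-stage samples, so its level does not set WT apart from AMPK-KO as the labels do. Summed reads of 4 Y-linked genes were at 128 to 139 CPM in WT, 141 to 153 CPM in AMPK-KO, 41.5 to 48.8 CPM in early-stage and at or near 0 in late-stage samples, so that tumor stage and the sex of the animals cannot be told apart in the second table. The Y-linked reads in WT, AMPK-KO and early-stage samples are at odds with the female mice named in the methods. Their source was not tested. The summed level of 11 macrophage genes was between 12159 and 15143 CPM in every library. Lyz2, low in the first table only, was among them. In the edgeR test described below, Itgam (log2 fold change 0.55) and Csf1r (0.14) were higher in AMPK-KO than in WT samples. Cd68 (−0.55) was lower, and the other 8 did not pass. Between the tumor stages, 1 of the 11 was higher and 2 were lower in late-stage samples. In bulk samples, fewer cells of a type and less RNA of a gene per cell cannot be told apart.

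The stretches just upstream of 4 of the genes are shown because they stood at the ends of what follows: Cd5l, Marco and Vsig4 had the lowest ratios of AMPK-KO to WT level, and Timd4 was the member whose late-stage level was above its early-stage level. Each is the 250 bases before the RefSeq start site on GRCm38.p6, printed 5′ to 3′ on the strand of the gene, at chr3:87357631-87357880 (+) for Cd5l, chr1:120505025-120505274 (-) for Marco, chrX:96293439-96293688 (-) for Vsig4 and chr11:46810549-46810798 (+) for Timd4. Capitals mark GAGGAA, the core bound by the myeloid factor PU.1 (read TTCCTC on the opposite strand), and TGCTGA, the half-site of MAF-family factors (TCAGCA on the opposite strand), both of which were searched on both strands and nowhere overlap in these 4 stretches.
Cd5l: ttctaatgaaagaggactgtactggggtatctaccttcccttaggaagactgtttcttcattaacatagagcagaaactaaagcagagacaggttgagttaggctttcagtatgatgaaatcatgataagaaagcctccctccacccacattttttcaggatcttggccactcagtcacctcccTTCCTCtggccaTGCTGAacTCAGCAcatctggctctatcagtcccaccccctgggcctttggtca
Marco: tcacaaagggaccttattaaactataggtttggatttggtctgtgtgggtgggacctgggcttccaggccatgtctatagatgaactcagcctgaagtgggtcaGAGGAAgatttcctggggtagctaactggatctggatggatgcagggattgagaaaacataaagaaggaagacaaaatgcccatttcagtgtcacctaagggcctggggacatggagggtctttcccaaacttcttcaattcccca
Vsig4: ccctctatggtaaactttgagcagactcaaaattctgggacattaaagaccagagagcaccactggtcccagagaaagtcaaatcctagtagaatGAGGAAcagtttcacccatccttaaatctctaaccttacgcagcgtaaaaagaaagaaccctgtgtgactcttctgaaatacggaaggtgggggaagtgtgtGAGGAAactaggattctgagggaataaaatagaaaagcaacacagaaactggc
Timd4: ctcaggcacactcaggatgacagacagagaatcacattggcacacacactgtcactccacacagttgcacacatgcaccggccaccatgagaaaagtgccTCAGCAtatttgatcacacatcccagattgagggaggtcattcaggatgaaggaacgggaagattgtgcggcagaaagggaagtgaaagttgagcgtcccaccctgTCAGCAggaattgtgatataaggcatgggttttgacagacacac
In windows that also hold the 50 bases after the start, GAGGAA occurred in 28.3% and TGCTGA in 19.5% of the 32851 RefSeq promoters of the mouse. Of the 9 members with a window in the table (Lyve1 was not in it), 5 held GAGGAA (Cd5l, Marco, Vsig4, Mrc1 and Cbr2) and 6 held TGCTGA (Cd5l, Vsig4, Timd4, Clec4f, Folr2 and Cbr2). In Cd5l the GAGGAA match began at position -66 from the start site, and TGCTGA stood at positions -54 and -46 on opposite strands with 2 bases between them. That inverted pair, TGCTGANNTCAGCA, was looked for after the sequence had been seen, and 2 of the 32851 promoters held it, Cd5l being the 1 member that did. The nuclear receptor half-site AGGTCA was found for Timd4 and Clec4f (16.3% of all promoters), the AP-1 site TGANTCA for Folr2 (7.81%) and the E-box CACGTG for no member (7.15%). These matches describe the letters of the windows and binding was not measured.

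In AMPK-KO TAMs, each of the 9 detected genes stood lower than in WT TAMs, and in none did the ranges of the 2 groups meet. The differences ran from a level of 11.4% of WT for Cd5l to 72.4% for Timd4, with a median log2 fold change of −0.77 against −0.0037 for all 17532 genes tested. By edgeR's quasi-likelihood test all 9 were among the genes called lower (adjusted p under 0.05 after Benjamini-Hochberg), as were 9.78% of all genes, whereas 11.3% of all genes were called higher; groups that did not overlap with AMPK-KO below WT made up 18.4% of all genes. The genes were proposed with these differences known, so their values are given as a description without a p-value. Together the 10 genes took 3181 to 3212 CPM of the WT libraries and 1924 to 2044 CPM of the AMPK-KO libraries.

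The secreted member, Cd5l (ENSMUSG00000015854.7, chr3:87357881-87371073, + strand), encodes the apoptosis inhibitor AIM, a circulating protein of the scavenger receptor cysteine-rich family made by macrophages. It measured 46.3, 51.2 and 47.2 CPM in the 3 WT samples and 5.86, 4.95 and 5.70 CPM in the 3 AMPK-KO samples. The highest AMPK-KO sample was far below the lowest WT sample, and the fitted log2 fold change of −3.13 (SE 0.09) was undercut by 42 of the 17532 genes tested.

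Among the receptors that take up particles and proteins, Marco (ENSMUSG00000026390.7, chr1:120474538-120505024, - strand), a class A scavenger receptor for bacteria and particles, measured 56.9, 67.9 and 69.8 CPM in WT and 17.4, 18.8 and 17.5 CPM in AMPK-KO samples. The 3 AMPK-KO values lay close together at 27.5% of the WT mean, a log2 fold change of −1.86 (SE 0.09). Cd163 (ENSMUSG00000008845.9, chr6:124304656-124330527, + strand), which takes up haemoglobin bound to haptoglobin, measured 169.9, 163 and 161 CPM in WT and 96.9, 103 and 88.5 CPM in AMPK-KO samples. Its difference was smaller, at −0.77 on the log2 scale (SE 0.06), with a clear gap between the groups. Mrc1 (ENSMUSG00000026712.3, chr2:14229392-14332057, + strand), the mannose receptor CD206, was the most abundant of the set in CPM, with 1850.0, 1679 and 1771 CPM in WT and 1299, 1268 and 1143 CPM in AMPK-KO samples. It had one of the mildest differences, with 70.0% of the WT level left and a log2 fold change of −0.51 (SE 0.06). Mrc1 holds the microRNA gene Mir511 on its own strand, to which at most 5 reads were assigned in any library.

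Vsig4 (ENSMUSG00000044206.3, chrX:96247203-96293438, - strand), the complement receptor CRIg that captures C3-coated particles, was the scarcest detected member at 3.83, 5.96 and 5.19 CPM in WT and 1.10, 1.56 and 1.49 CPM in AMPK-KO samples. All 3 AMPK-KO samples were below all 3 WT samples, and the log2 fold change of −1.85 had the widest error of the set (SE 0.22). Timd4 (ENSMUSG00000055546.6, chr11:46810800-46844332, + strand), a receptor for phosphatidylserine on dying cells, measured 41.9, 41.6 and 37.1 CPM in WT and 31.0, 30.6 and 25.7 CPM in AMPK-KO samples. It showed the smallest difference of the 9, −0.47 on the log2 scale (SE 0.09), and 2146 genes had a lower log2 fold change. Clec4f (ENSMUSG00000014542.3, chr6:83644542-83656187, - strand), a lectin that in mice defines Kupffer cells, had 0 counts in every library of both tables, which allows a level of up to 0.0355 to 0.0422 CPM if 3 counts are taken as the floor.

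The last members are a folate receptor, a hyaluronan receptor and an enzyme. Folr2 (ENSMUSG00000032725.10, chr7:101839988-101857194, - strand), folate receptor β, measured 386, 448 and 421 CPM in WT and 240.4, 255 and 265 CPM in AMPK-KO samples. The groups were well apart, with a log2 fold change of −0.72 (SE 0.06). On GRCm38, 2 gene models lie over Folr2 on the other strand, Gm10602 with a mean of 17.7 CPM in WT and 13.8 CPM in AMPK-KO samples and Gm45319 with at most 1 read, and whether strand was used in counting is not stated. Lyve1 (ENSMUSG00000030787.4, chr7:110850607-110863239, - strand), a hyaluronan receptor shared by lymphatic endothelium and perivascular macrophages, measured 202, 201 and 209 CPM in WT and 125, 127 and 108 CPM in AMPK-KO samples. Its log2 fold change, −0.77 (SE 0.06), was close to that of Cd163. Cbr2 (ENSMUSG00000025150.10, chr11:120729489-120732114, - strand), a carbonyl reductase, measured 454, 523 and 491 CPM in WT and 225, 234 and 269 CPM in AMPK-KO samples, which left 49.6% of its WT level. At −1.01 (SE 0.07) it was the member just past a log2 fold change of 1 in size, the bound above which 4 members lay (Cd5l, Marco, Vsig4 and Cbr2), and Cd163 at −0.77 was the next below that bound.

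**Figure D1:**
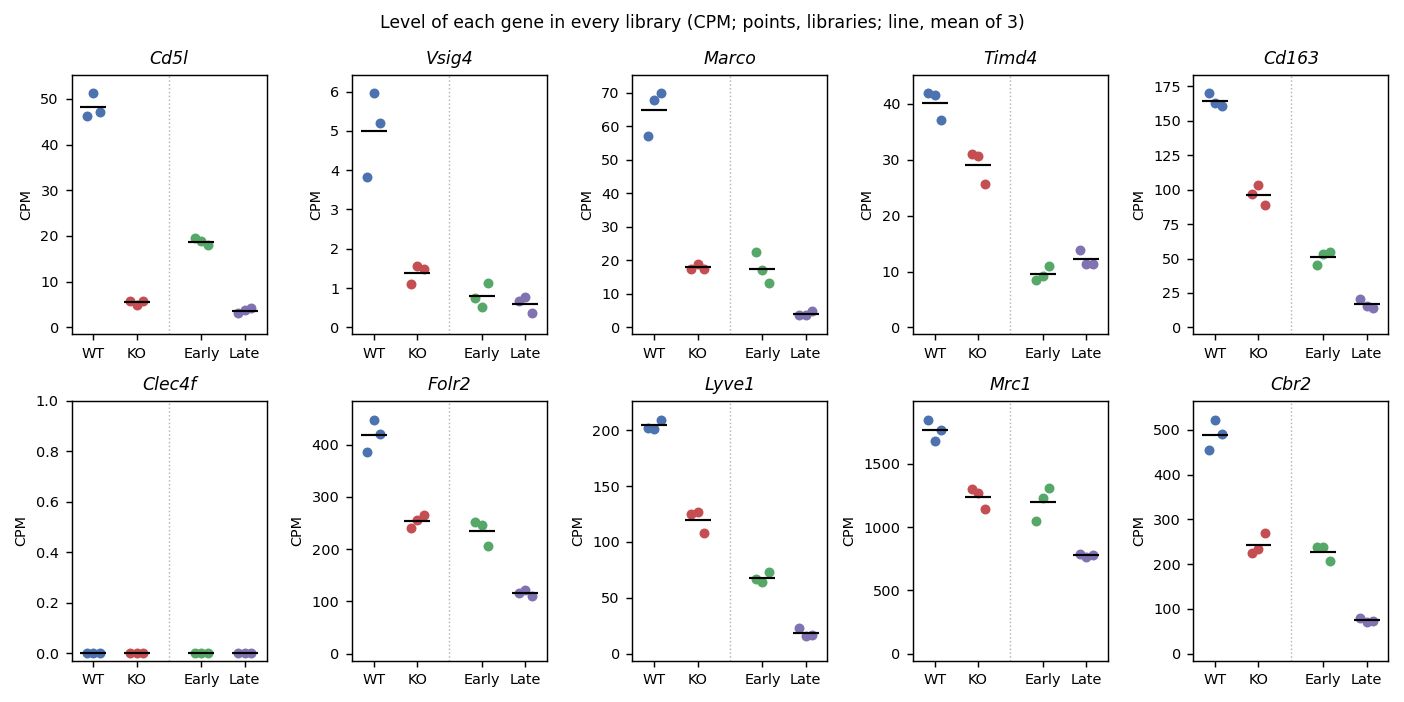
Level of each of the 10 genes in CPM (linear axes from 0) in each library, with 3 points per group and a line at their mean; the dotted line separates the 2 tables, which were scaled separately. The AMPK-KO points lie below the WT points for all 9 detected genes, and the late-stage points lie below the early-stage points for 7 genes, overlap them for Vsig4 and lie above them for Timd4.

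From early-stage to late-stage tumors, 7 of the 9 detected genes fell (Cd5l, Marco, Lyve1, Cd163, Cbr2, Folr2 and Mrc1), none rose, and Vsig4 and Timd4 did not pass the test. The adjusted p-values come from edgeR's quasi-likelihood test over all 17630 genes tested in that table, which shares no library with the AMPK-KO and WT samples. The levels known when the set was proposed were those in AMPK-KO and WT samples, and whether tumor-stage results also bore on the choice is not known, so the p-values carry that reserve. By the same rule 4.88% of all genes were called lower and 4.31% higher, and late-stage samples lay below early-stage samples without overlap for 15.6% of all genes, as they did for the same 7 members. The median log2 fold change of the 9 was −1.61, against 0.0027 for all genes tested. The summed level of the set went from between 1704 and 1894 CPM to between 1010 and 1049 CPM.

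Cd5l measured 19.5, 18.8 and 18.0 CPM in the early-stage samples and 3.15, 3.77 and 4.15 CPM in the late-stage samples. The groups were far apart, and the fall of 2.34 on the log2 scale (SE 0.14, adjusted p = 1.38e-05) was the largest of the set. Marco measured 22.3, 17.2 and 13.1 CPM in early-stage and 3.71, 3.57 and 4.98 CPM in late-stage samples. The early-stage samples spread widely, yet the lowest of them was still well above the highest late-stage sample, and the gene fell by 2.10 on the log2 scale (SE 0.21, adjusted p = 3.51e-04). Cd163 measured 45.2, 53.6 and 54.7 CPM in early-stage and 20.4, 15.8 and 13.8 CPM in late-stage samples. It fell by 1.62 on the log2 scale (SE 0.15, adjusted p = 1.90e-04), with late-stage replicate 1 the highest of its group but well below the early-stage samples. Mrc1 measured 1051, 1231 and 1310.4 CPM in early-stage and 788, 767 and 780.0 CPM in late-stage samples. Its late-stage samples were almost level with each other, and its fall was the smallest of those that passed (log2 fold change −0.62, SE 0.09, adjusted p = 0.00187).

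Vsig4 measured 0.749, 0.530 and 1.14 CPM in early-stage and 0.667, 0.774 and 0.363 CPM in late-stage samples. The groups overlapped at these low levels, which rest on 30 to 94 counts per library. The coefficient of variation was 38% in early-stage and 35% in late-stage samples, and with this spread a difference was not detectable (log2 fold change −0.42, SE 0.45, adjusted p = 0.622). Timd4 measured 8.53, 9.19 and 11.0 CPM in early-stage and 13.8, 11.4 and 11.3 CPM in late-stage samples. Here the 3 late-stage samples were above the 3 early-stage samples, narrowly so, and the difference missed the threshold (log2 fold change 0.35, SE 0.14, unadjusted p = 0.0362, adjusted p = 0.169).

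Folr2 measured 251, 246 and 206 CPM in early-stage and 116, 121 and 111 CPM in late-stage samples. The late-stage level was 49.4% of the early-stage level (log2 fold change −1.02, SE 0.09, adjusted p = 1.49e-04). Lyve1 measured 67.2, 64.4 and 73.0 CPM in early-stage and 22.9, 16.3 and 16.7 CPM in late-stage samples. It kept 27.3% of its early-stage level, with no overlap (log2 fold change −1.87, SE 0.13, adjusted p = 4.36e-05). Cbr2 measured 238, 238 and 207 CPM in early-stage and 80.7, 70.3 and 72.9 CPM in late-stage samples. Both groups were tight, and Cbr2 had the smallest adjusted p of the set, falling by 1.61 on the log2 scale (SE 0.09, adjusted p = 1.15e-05).

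**Figure D2:**
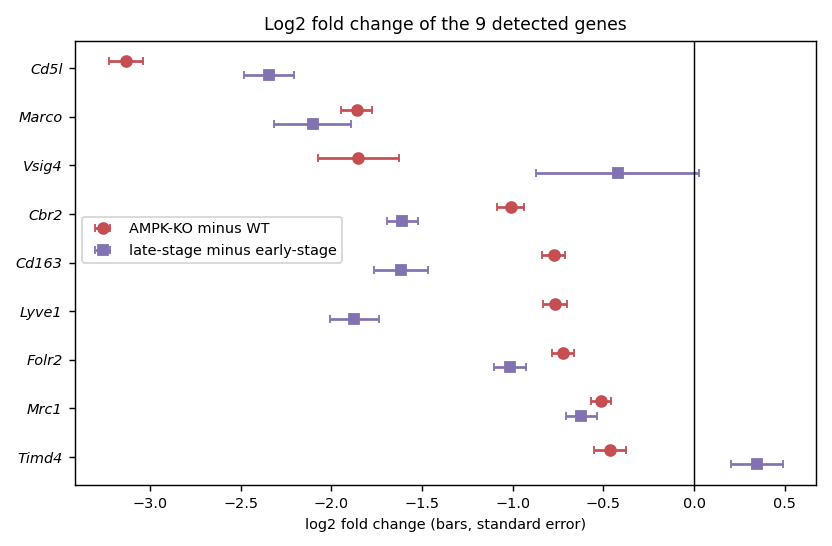
Log2 fold change of the 9 detected genes, with bars of 1 standard error, for AMPK-KO minus WT (circles) and late-stage minus early-stage (squares). All 9 circles lie below 0, from −3.13 for Cd5l to −0.47 for Timd4, and the squares run from −2.34 for Cd5l to 0.35 for Timd4, with the bar of Vsig4 reaching 0.

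Set side by side, Cd5l and Marco had log2 fold changes below −1.8 in both comparisons. Lyve1 and Cd163 had −0.77 each for AMPK-KO against WT and −1.87 and −1.62 for late-stage against early-stage, and Vsig4 and Timd4 were the members that lay below WT in AMPK-KO TAMs and did not pass the test for tumor stage. Across the 9 genes the fold changes of the 2 comparisons, which share no sample, correlated with a Pearson r of 0.538 and a Spearman rho of 0.683, a description over genes that are not independent.

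Levels of different genes were compared per kilobase of exon. In WT TAMs, Cbr2 was the highest at 369 CPM per kb, followed by Mrc1 at 277 and Folr2 at 271, whose ranges over libraries overlapped. Lyve1 (70.0), Marco (33.7), Cd163 (30.1), Cd5l (23.7), Timd4 (18.5) and Vsig4 (3.36 CPM per kb) followed, and of these neighbours Marco and Cd163 overlapped. In AMPK-KO TAMs, Mrc1, Cbr2 and Folr2 overlapped in turn at 194, 183 and 164 CPM per kb, and Cd5l, at 2.70 CPM per kb, stood below Timd4 (13.4) and Marco (9.28), with Vsig4 at 0.930. In early-stage TAMs, Mrc1 (188), Cbr2 (171) and Folr2 (152) again led with overlapping neighbours, and Cd163 (9.36), Cd5l (9.21) and Marco (9.12 CPM per kb) were not distinguishable. In late-stage TAMs, the order was Mrc1 (122), Folr2 (75.0) and Cbr2 (56.2), then Lyve1 (6.37) with Timd4 (5.61) inside its range, then Cd163 (3.05), Marco (2.12) and Cd5l (1.81), whose neighbours overlapped, and Vsig4 (0.405 CPM per kb).

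**Figure D3:**
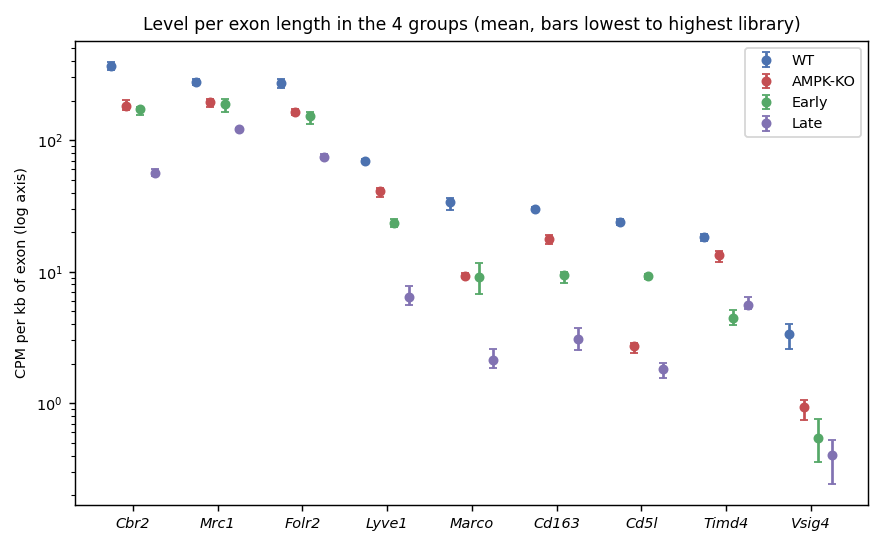
Level of the 9 detected genes in CPM per kb of exon on a log axis, in the order of the WT level, with points at the mean of 3 libraries and bars from the lowest to the highest library. Mrc1, Cbr2 and Folr2 stay above 50 CPM per kb in every group, whereas Cd5l drops from 23.7 in WT to 2.70 in AMPK-KO and from 9.21 in early-stage to 1.81 in late-stage samples.

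Within a group the members varied little between libraries: over the 36 values of 9 genes in 4 groups the coefficient of variation had a median of 8.68% and ran from 1.38% to 38.1%, the highest belonging to Vsig4. Over all 12 libraries, centred within each table, the 36 pairs of members had Pearson correlations from −0.136 to 0.990 with a median of 0.893, in which both group differences take part. The lowest value was that of Timd4 with Lyve1, and Timd4 stood apart from the other members. Its correlations ran from −0.136 to 0.221 with all of them but Vsig4 (0.567). Other genes with a like pattern over the 12 libraries, among 16812 genes, were Spp1, Snx2 and Mindy1 for Cd5l (r from 0.993 to 0.998), Npl and Ctsl for Marco (0.982 and 0.979), Ednrb, Rgl1 and Stard8 for Cd163 (0.980 to 0.992), and Mtmr10, Selenop and Eps8 for Mrc1 (0.983 to 0.989). For Folr2 they were Ctsl, Clec4d and 6430548M08Rik (0.984 to 0.991), for Lyve1 Ednrb, Rgl1 and Ccl6 (0.984 to 0.987), and for Cbr2 Clec4d, Pdpn and Mmp19 (0.982 to 0.987). Vsig4 was most like 4930430E12Rik, Spic and Calr (0.933 to 0.937), and Timd4 like Sgo2a, Cox15 and Dnmt3a (0.916 to 0.946).

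Related genes were then read from lists written from general knowledge, but with earlier results of these data known. Their counts and adjusted p-values, again those of edgeR over all genes of a table, are therefore given as a description. Of 16 other genes of resident-type macrophages, 11 were lower and 2 higher in AMPK-KO TAMs (median log2 fold change −0.54). They included Gas6, which bridges dying cells to the receptors MERTK and AXL (−1.12, adjusted p = 2.21e-07), the growth factor Igf1 (−1.10, adjusted p = 5.58e-06) and the selenium carrier Selenop (−0.58, adjusted p = 8.55e-06), while the lectin Mgl2 rose (0.93, adjusted p = 4.14e-06). In late-stage TAMs 13 of the 16 were lower and 1 higher (median −0.78), with the transglutaminase F13a1 (−1.75, adjusted p = 2.65e-05), Igf1 (−0.81, adjusted p = 5.20e-04) and the chemokine Ccl8 (−0.65, adjusted p = 0.00101) falling and the complement gene C4b rising (0.95, adjusted p = 4.36e-05). The late-stage count was 8 without early-stage replicate 2, 8 without late-stage replicate 2 and 9 without late-stage replicate 3.

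Scavenger receptors outside the set moved both ways. Of 13 such receptors 5 were lower and 3 higher in AMPK-KO TAMs (median −0.03), among them Stab1 (−0.84, adjusted p = 7.32e-07), the fatty acid receptor Cd36 (−0.64, adjusted p = 4.32e-06) and Cd68 (−0.55, adjusted p = 1.18e-05) on the lower side and Cxcl16 (0.47, adjusted p = 5.29e-05) on the higher. In late-stage TAMs 3 were lower and 3 higher (median 0.03), with Colec12 (−1.43, adjusted p = 1.19e-04) and Cd36 (−0.72, adjusted p = 8.82e-04) falling and Cxcl16 (0.31, adjusted p = 0.0197) and the lipoprotein receptor Scarb1 (0.31, adjusted p = 0.03) rising. The late-stage count of 6 was 3 without early-stage replicate 2 and 2 without any one of the late-stage replicates.

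Of further Kupffer cell genes, 4 of 12 tested were lower and 3 higher in AMPK-KO TAMs (median −0.09), and 5 of 13 were lower in late-stage TAMs (median −0.45). The 4 include Cdh5 (−0.56, adjusted p = 0.0476), which is also the 1 lower gene among the markers of blood endothelium below. The count of 4 held only with RLE or upper-quartile factors and without AMPK-KO replicate 1. With DESeq2, a replicate block, another filter or any other library left out, 3 were lower in AMPK-KO TAMs. The iron exporter Slc40a1 fell in both (−2.41, adjusted p = 1.65e-08 and −1.58, adjusted p = 2.65e-05), as did the haem-degrading enzyme Hmox1 (−1.36, adjusted p = 4.17e-08 and −0.73, adjusted p = 6.39e-04). The interleukin-18 inhibitor Il18bp was higher in AMPK-KO (1.03, adjusted p = 1.55e-06) and lower in late-stage TAMs (−0.78, adjusted p = 3.93e-04). Spic, a factor of iron-recycling macrophages, was lower in AMPK-KO TAMs (−0.98, adjusted p = 1.80e-04), and Hpgd, a prostaglandin-degrading enzyme, in late-stage TAMs (−1.91, adjusted p = 0.00506).

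Of 21 transcription factors of macrophages, 4 were lower and 5 higher in AMPK-KO TAMs (median 0.02), led besides Spic by Irf8 (0.40, adjusted p = 9.53e-05), Tfec (−0.58, adjusted p = 0.00131) and Nr1h3 (0.40, adjusted p = 0.00147). In late-stage TAMs 3 were lower and 1 higher (median −0.10), namely Tfec (−0.71, adjusted p = 0.0022), the Notch effector Rbpj (−0.56, adjusted p = 0.00517), Maf (−0.42, adjusted p = 0.0183) and, on the higher side, Pparg (0.30, adjusted p = 0.0338). That count of 4 was 8 without early-stage replicate 3 and 2 without late-stage replicate 2. Of the factors whose motifs are marked in capitals, neither of the following genes passed the test in AMPK-KO TAMs, with Spi1, which encodes PU.1, at 0.11, adjusted p = 0.186 and Maf at −0.11, adjusted p = 0.232. In late-stage TAMs Spi1 did not pass it either (0.04, adjusted p = 0.854).

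Of 11 genes of alternative activation, AMPK-KO TAMs had 4 higher and 2 lower (median 0.23), with the ligand gene Pdcd1lg2 (2.09, adjusted p = 6.63e-07), Ear2 (1.51, adjusted p = 7.72e-07) and Retnla (1.48, adjusted p = 1.06e-06) the furthest up besides Mgl2. In late-stage TAMs 8 of the 11 were lower and 1 higher (median −0.71), and Arg1 (−1.33, adjusted p = 1.34e-05), Chil3 (−1.81, adjusted p = 2.65e-05), Pdcd1lg2 (−1.22, adjusted p = 6.92e-04) and Ear2 (−1.34, adjusted p = 0.00186) fell. This list shares Mgl2, Clec10a and Ccl24 with the list of resident-type genes.

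Of 10 monocyte genes, 6 were called higher in AMPK-KO TAMs (median 0.37), with Ly6c2 (1.19, adjusted p = 3.44e-06), the chemokine receptor Ccr2 (0.77, adjusted p = 4.32e-06), Plac8 (0.78, adjusted p = 1.26e-04) and Hp (0.86, adjusted p = 1.77e-04) in front. In late-stage TAMs 7 were lower and 1 higher (median −1.09): Hp (−2.49, adjusted p = 1.15e-05), Plac8 (−1.31, adjusted p = 2.65e-05) and Ly6c2 (−1.84, adjusted p = 4.79e-05) fell and Cx3cr1 (1.07, adjusted p = 4.79e-05) rose. The summed level of the 10 monocyte genes was 1495 to 1631 CPM in WT, 1861 to 2026 CPM in AMPK-KO, 1632 to 1890 CPM in early-stage and 1058 to 1216 CPM in late-stage samples, and their part in the levels of the scavenger genes was not tested.

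**Figure D4:**
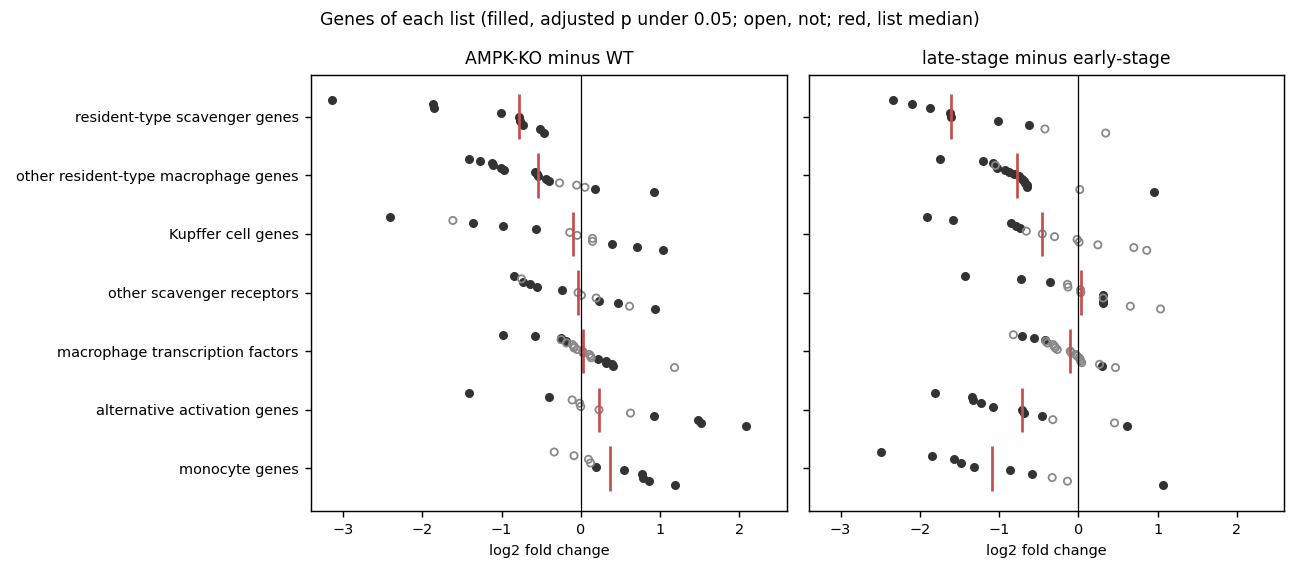
Log2 fold change of each tested gene of the set and of 6 related lists, for AMPK-KO minus WT (left) and late-stage minus early-stage (right); filled points had an adjusted p under 0.05, open points did not, and red lines are list medians. The median of the set is −0.77 on the left and −1.61 on the right, and that of the monocyte genes 0.37 and −1.09.

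Markers of other cell types also differed between the groups. The gate given in the methods should leave out melanoma cells, fibroblasts and endothelium, which lack CD45, neutrophils, which carry Ly6G, and most lymphocytes, which lack F4/80, so these values are RNA levels in the sorted samples and not counts of such cells. In AMPK-KO TAMs all 6 B16 melanoma markers were lower (summed level 919 to 926 CPM in WT and 615 to 645 CPM in AMPK-KO). Of 4 B cell markers, 3 were lower and 1 higher (27.7 to 29.1 and 19.9 to 22.0 CPM). The median log2 fold change of these 4 was −4.06, a far larger fall than that of their summed level. By contrast, 5 of 6 T cell markers (76.5 to 91.5 and 148 to 156 CPM), 4 of 4 NK cell markers (22.5 to 25.5 and 56.4 to 60.1 CPM), 6 of 6 markers of conventional dendritic cells (80.3 to 90.8 and 125 to 132 CPM) and 5 of 5 fibroblast markers (432 to 476 and 570 to 628 CPM) were higher. Of 6 tested neutrophil markers, 4 were higher too (111 to 119 and 183 to 185 CPM), with the defining marker Ly6g at 0 in all 6 libraries, and of 5 markers of blood endothelium 2 rose and 1 fell (52.7 to 59.6 and 117 to 121 CPM). In late-stage TAMs 4 of 6 melanoma markers (1546 to 1667 CPM in early-stage and 701 to 1133 CPM in late-stage), 3 of 4 NK cell markers (53.1 to 64.0 and 29.9 to 39.9 CPM), 2 of 5 fibroblast markers (611 to 683 and 298 to 420 CPM), 2 of 5 tested neutrophil markers (121 to 128 and 104 to 109 CPM) and 1 of 5 markers of blood endothelium (87.6 to 90.9 and 78.5 to 83.5 CPM) were lower, 2 of 6 T cell markers (128 to 136 and 157 to 188 CPM) and 2 of 4 B cell markers (33.6 to 36.9 and 52.0 to 74.0 CPM) were higher, and of 6 markers of conventional dendritic cells 1 was lower and 1 higher (89.3 to 97.4 and 93.3 to 100.2 CPM). The summed level of 3 markers of plasmacytoid dendritic cells was 54.4 to 72.5 CPM over the 12 libraries. Their part in the results for the scavenger genes was not tested.

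Lyve1 and Mrc1 are also made by lymphatic and sinusoidal endothelium, and Clec4f is known from liver macrophages. Of 6 markers of that endothelium, Pdpn was called lower in both comparisons (−0.87, adjusted p = 7.04e-06 and −1.37, adjusted p = 1.15e-05), and it made up most of a summed level of 129 to 150 CPM in WT, 78.0 to 80.3 CPM in AMPK-KO, 138 to 153 CPM in early-stage and 55.2 to 59.4 CPM in late-stage samples. The defining markers Prox1, Flt4 and Stab2 reached at most 1.34, 3.04 and 1.49 CPM in any library and were not called, and Ccl21a and Reln were at 0 or near it. The part of such endothelium in the levels of Lyve1 and Mrc1 was not tested. Hepatocyte genes were at or near 0, with Alb at 2.51 CPM in early-stage replicate 3 the highest value of the 3 genes listed.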

How the data were processed

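The authors filtered and mapped the reads with HISAT2 and counted them per gene with featureCounts, and they deposited raw counts in 1 table per comparison. The submitters' processing notes name FastQC, HISAT2, featureCounts and DESeq2 and the builds mm10 and GRCm38. Tool versions and the treatment of strand and of reads that map to several places are not given in the sources used here. Library totals were 71019494 to 84470374 counts. All 12 value columns were matched to samples by name, which left 0 unmatched.

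Genes were filtered with filterByExpr, scaled by TMM and tested by quasi-likelihood in edgeR 4.0.16 (R 4.3.3), without covariates and within each table, since each was normalized on its own. P-values were adjusted by Benjamini and Hochberg over all genes tested, and a gene was called at an adjusted p under 0.05 at any fold. The standard error is the log2 fold change divided by the square root of F. For a count of 0 the floor was set at 3 counts, which covers counting error only. DESeq2 1.42.0 served as an alternative, and both tools were tested on simulated data. Gene models came from GENCODE M21 (GRCm38), matched by identifier and version, with exon length as the union over transcripts, and promoters from RefSeq (GRCm38.p6). Likeness was the Pearson r of log2 CPM (prior count 2). Figures were drawn with matplotlib 3.10.9.

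All 10 genes of the set are named, with up to 4 called genes of smallest adjusted p per related list and comparison and the 3 most similar genes of each member, of which 1 is not reported here. The genes of the motif factors, the overlapping gene models and single markers were named after their values were seen. The genes, lists and motifs were chosen with earlier results of these data known.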

Additional observations from a re-analysis of the deposited data

How the results depend on the processing

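The log2 fold changes of the 9 detected members kept their direction and their side of the threshold under all 12 alternatives in both comparisons (RLE or upper-quartile factors, DESeq2, a minimum of 1 count in all or of 10 counts per library, a replicate block, and 6 fits that each leave out a library). For late-stage against early-stage the adjusted p of Timd4 ran from 0.0704 to 0.447 and that of Vsig4 from 0.498 to 0.938. Adding a bound of 1 on the absolute log2 fold change, the fold bound of the authors (who set it with an unadjusted p), to the adjusted p left 4 of the 9 members called in AMPK-KO TAMs and 6 of 7 in late-stage TAMs, and it left 585 of 3693 and 329 of 1619 genes called in all. In each count 1 member lay close to the bound and crossed it in some alternatives. These were Cbr2 in AMPK-KO TAMs (−1.09 to −0.960) and Folr2 in late-stage TAMs (−1.10 to −0.960). With that bound the calls in AMPK-KO TAMs went from 8 to 0 for other scavenger receptors, 9 to 0 for transcription factors, 6 to 1 for monocyte genes, 13 to 5 for other resident-type genes and 7 to 3 for Kupffer cell genes, and in late-stage TAMs from 6 to 1 for other scavenger receptors, 4 to 0 for transcription factors, 14 to 4 for other resident-type genes, 5 to 2 for Kupffer cell genes and 9 to 5 for alternative activation genes. For late-stage against early-stage DESeq2 called 2447 genes and the test without a filter 936. With a library left out, the members called stayed at 9 and at 7, while all genes called ranged from 2414 (without WT replicate 3; 2419 without AMPK-KO replicate 2) to 4039, and for tumor stage from 653 (without late-stage replicate 2) to 2835 (without early-stage replicate 1), with 680, 853 and 682 without early-stage replicate 2, late-stage replicate 1 and late-stage replicate 3. The causes were not tested.

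Same-numbered samples did not deviate together (correlations of −0.00390 to 0.0423 for AMPK-KO and WT and 0.0132 to 0.0255 for tumor stage), so no pairing by number was seen. These values cannot tell whether same-numbered samples shared an origin or were handled together. With the replicate block 3862 and 1417 genes were called, among them the same counts of members, 9 and 7, and no call of a member changed.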

Other observations

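The WT samples of the first table and the late-stage samples of the second both came from B16-F10 tumors at day 15. The tables were scaled separately, and the samples differ in the floxed allele, in Y-linked reads and in Lyz2, which stood at 1107 CPM in late-stage samples and at 10.7 CPM in WT samples, about as low as in the samples labelled Lyz2cre; whether the WT animals carry that Cre is not known. No test was made between them, so the levels are only set side by side. The WT samples held 13.1 times the late-stage CPM of Cd5l (48.2 ± 2.62 against 3.69 ± 0.504 CPM, SD, n = 3), 15.9 times that of Marco, 11.0 times that of Lyve1, 9.86 times that of Cd163 and 8.30 times that of Vsig4. The ratio was 6.56 for Cbr2, 3.61 for Folr2, 3.30 for Timd4 and 2.27 for Mrc1. The early-stage mean lay between the WT and late-stage means for 8 of the 9 genes, and below both for Timd4.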
